A study of Mus musculus with 9 samples.

Results

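The genes described here are 7 transcripts of 3 imprinted regions of the mouse genome, taken as the rows of the deposited expression table whose symbol is Igf2, H19, Igf2r, Dlk1, Meg3, Rian or Mirg. They are 7 of 37975 rows. The study followed gene expression while the transcription factor Sox17 was induced in mouse embryonic stem cells (ESC), and set those cells beside extraembryonic endoderm stem (XEN) cells, a self-renewing cell type of the primitive endoderm lineage. RNA was sequenced from 9 libraries, 1 per group, so no value below has a replicate error, and a p-value is given only where a test runs over several libraries. Expression is in FPKM, a count of sequenced fragments scaled to transcript length and to the size of the library, so levels of different genes are per length.

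Of the Sox17-overexpression ESC line, named 4J in the labels, 6 libraries form a doxycycline (dox) course: cells without dox, then cells with 100 ng/ml dox for 7 h, 21 h, 35 h, 49 h and 6 days. The day 6 sample carries the word SORT in its description, without stating what was sorted. Sox17-XEN is of the same line, has no cell type label and is described as dox-indep; the label gives it 30 days of dox and 30 days without, in an order that its wording does not settle. The remaining libraries are wild-type: the XEN line IM8AR and the ESC line R1, both without dox. ESC were grown with fibroblast feeder cells in serum and the cytokine LIF, and XEN cells in serum and medium conditioned by such fibroblasts. Each line is 1 line, with no second clone, and the course has no dox-free culture at the later times. Sox17 itself stood at 0.909 FPKM without dox, was at 283, 281, 191 and 151 FPKM after 7, 21, 35 and 49 h, and was at 71.1 FPKM on day 6. It read 101 FPKM in Sox17-XEN, 239 FPKM in XEN and 0.163 FPKM in R1, and the table does not separate transgene from endogenous transcripts.

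Imprinted genes are expressed mainly from the chromosome inherited from one parent, and their allele of origin is remembered through DNA methylation at control regions. Igf2 encodes a growth factor made from the paternal copy, its neighbour H19 is a long noncoding RNA made from the maternal copy, and the receptor encoded by the maternally expressed Igf2r carries IGF2 to lysosomes for degradation. In the Dlk1-Meg3 region the paternal copy expresses Dlk1, a membrane protein related to Notch ligands, and the maternal copy expresses the noncoding RNAs Meg3, Rian and Mirg, which are transcribed in the same direction and host clusters of microRNAs and small nucleolar RNAs. In mouse stem cells made by reprogramming, silencing of this maternal cluster is known from other work as a sign of lost imprinting. FPKM values do not separate the parental copies, so what follows describes levels and not allelic expression.

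In the mm9 coordinates of the deposited table, Igf2 (ENSMUSG00000048583) lies on chromosome 7 from 149836673 to 149856261 and H19 from 149761434 to 149764048. Dlk1, Meg3, Rian and Mirg follow each other on chromosome 12, where Dlk1 runs from 110691033 to 110701546, Meg3 from 110779211 to 110809936, Rian from 110842155 to 110899919 and Mirg from 110973191 to 110987665. The locus listed for Igf2r, chromosome 17 from 12875272 to 13061009, is shared with 7 other rows, among them its antisense RNA Airn. Rian shares its locus with 17 other rows, Mirg with 10, Meg3 with 3, Igf2 with 2 and H19 with 1, whereas Dlk1 shares it with none. The use of strand in the authors' counting is not given in the sources used here, so for overlapping rows, such as Igf2r and Airn, fragments of one cannot be told apart from those of the other.

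Some microRNA genes have rows that share the listed locus of 5 of the genes, called hosts here. Igf2 and H19 are listed with 1 microRNA gene each, Meg3 with 2, Rian with 3 and Mirg with 8. RefSeq (GRCm38.p6) gives 28 mature sequences for these 15 microRNA genes. The 28 mature sequences have 28 different seeds (bases 2 to 8), so no 2 of them share a seed. The sequences below, 5′ to 3′ with the seed in capitals, are both arms of the single microRNA gene in Igf2 (miR-483) and in H19 (miR-675), 1 arm for Meg3 (miR-770), 1 arm of each gene in Rian (miR-370, miR-341 and miR-1188) and 4 from Mirg.
miR-483-5p: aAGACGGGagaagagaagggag
miR-483-3p: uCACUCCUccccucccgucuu
miR-675-5p: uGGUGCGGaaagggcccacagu
miR-675-3p: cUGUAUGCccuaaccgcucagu
miR-770-5p: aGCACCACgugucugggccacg
miR-370-3p: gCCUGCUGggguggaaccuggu
miR-341-3p: uCGGUCGAucggucggucggu
miR-1188-5p: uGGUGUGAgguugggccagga
miR-154-5p: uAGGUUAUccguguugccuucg
miR-377-3p: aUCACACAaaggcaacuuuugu
miR-410-3p: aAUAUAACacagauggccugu
miR-541-5p: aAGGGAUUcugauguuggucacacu
The gene rows of these microRNAs do not measure the mature forms. Of 51 microRNA rows listed within the Dlk1-Meg3 region, 2 had any value above 0: Mir1188, at 14.2 FPKM at most, and Mir1193.

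Start-site windows of RefSeq (250 bases before to 50 after the start, GRCm38.p6) exist for 6 of the 7 genes, with 10 windows in all. Those of Meg3 and Rian are printed because both RNAs come from the same strand of the same imprinted region and because their levels came apart in Sox17-XEN, as described below. The Dlk1 window is the paternally expressed neighbour's. Capitals mark matches, on either strand, to 4 motifs searched: the promoter element TATAAA, the letters TGCCGC that the imprint-protecting protein ZFP57 binds when methylated, the SOX core ACAAT and the GATA-factor letters AGATAA.
Meg3 window, chr12:109540746-109541045, plus strand: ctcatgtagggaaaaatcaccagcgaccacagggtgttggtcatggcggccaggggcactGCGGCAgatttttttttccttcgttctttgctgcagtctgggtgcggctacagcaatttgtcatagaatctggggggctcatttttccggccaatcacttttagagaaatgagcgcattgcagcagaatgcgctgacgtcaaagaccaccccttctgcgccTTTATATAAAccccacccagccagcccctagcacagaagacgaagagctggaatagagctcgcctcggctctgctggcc
Rian window, chr12:109603695-109603994, plus strand: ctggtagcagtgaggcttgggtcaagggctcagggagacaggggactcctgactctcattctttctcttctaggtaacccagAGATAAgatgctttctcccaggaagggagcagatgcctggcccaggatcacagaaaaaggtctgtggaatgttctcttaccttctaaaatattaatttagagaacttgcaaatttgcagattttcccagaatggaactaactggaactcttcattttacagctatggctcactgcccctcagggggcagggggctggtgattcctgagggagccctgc
Dlk1 window, chr12:109452573-109452872, plus strand: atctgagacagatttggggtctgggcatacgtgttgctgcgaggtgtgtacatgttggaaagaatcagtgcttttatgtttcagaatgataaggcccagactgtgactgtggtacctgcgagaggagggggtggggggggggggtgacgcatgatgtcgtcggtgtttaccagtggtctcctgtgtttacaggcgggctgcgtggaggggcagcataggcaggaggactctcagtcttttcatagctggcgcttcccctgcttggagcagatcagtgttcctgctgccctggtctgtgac
The printed Meg3 window holds 1 TGCCGC match (read as GCGGCA) and 2 overlapping TATAAA matches, 1 on each strand, in a single run of capitals. The Rian window holds 1 AGATAA match, and the Dlk1 window holds none of the 4. Among all 32851 windows of this length, 13.6% hold TATAAA, 11.6% TGCCGC, 31.0% ACAAT and 11.2% AGATAA, so windows with each motif are common. In CpG dinucleotides the printed Meg3 window has 13, Dlk1 9 and Rian 0, that of Mirg has 10, and the median over all windows is 7. A second Meg3 window of RefSeq (chr12:109545148-109545447, plus strand), not printed, has 1 CpG, at the 14.1 percentile, and none of the 4 motifs. The Igf2r window (chr17:12769657-12769956, minus strand) has 34 and stands at the 93.0 percentile.

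The libraries differed in depth and in cell content, and these differences accompany many of the values below. Absolute depth is unknown because the table holds no counts. Depth relative to R1, estimated from low FPKM values of which only 5.99% to 12.1% share the commonest ratio, was 61.6% to 66.9% in day 6, Sox17-XEN and XEN and 94.0% to 126% in the others. The authors' lower confidence bound was 0 for all 7 genes in all 9 libraries. Over all genes it was 0 in 98.7% of the 111619 values of 1 FPKM or more. Of the cell type markers, the summed FPKM of 12 primitive endoderm genes was 2759 in Sox17-XEN (10 measured), 10494 in XEN (11 measured), 10759 at day 6 and 284 to 910 in the ESC libraries and the course up to 49 h. These sums leave out failed values, so they run over different genes. The medians of the measured genes were 208 FPKM in Sox17-XEN, 99.9 FPKM in XEN and 147 FPKM at day 6. In the ESC libraries and the course up to 49 h the medians were 0.757 to 11.6 FPKM. Primitive endoderm markers were thus high in every library labelled or described as XEN. The 12 pluripotency genes summed to 23.6 FPKM in Sox17-XEN, 33.2 FPKM in XEN, 2193 FPKM at day 6 and 2285 to 5052 FPKM elsewhere. At day 6 the sum came mostly from Dppa5a (1733 FPKM) and Pou5f1 (325 FPKM): the median of the pluripotency genes was 1.89 FPKM there and 83.4 to 169 FPKM in the ESC libraries and the course up to 49 h, and 8 of 11 were lower than without dox by 2 log2 units or more. The sum of 24 fibroblast feeder markers was 3042 FPKM without dox, then 1497, 1963, 2522 and 3862 FPKM after 7, 21, 35 and 49 h, and 289 FPKM on day 6. It was 1170 FPKM in Sox17-XEN, 38.8 FPKM in XEN, where 2 of the 24 genes were at 0, and 1458 FPKM in R1. In bulk RNA, fewer expressing cells and less RNA per cell cannot be told apart.

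**Figure D1:**
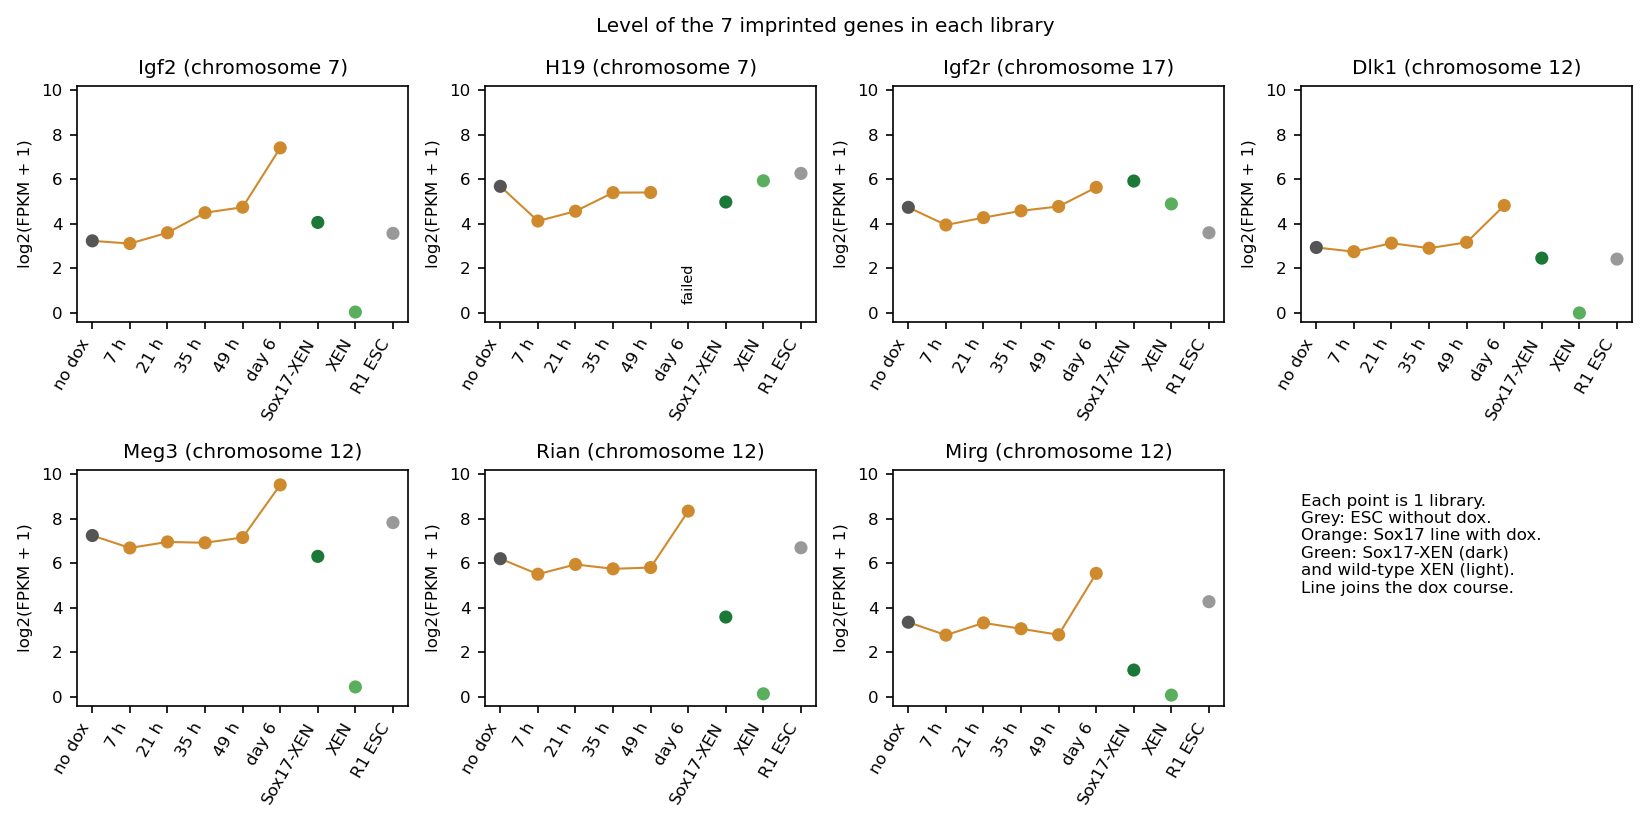
Level of each gene in each of the 9 libraries, as log2(FPKM + 1) on the vertical axis, with 1 point per library and a line joining the dox course. Igf2, Dlk1, Meg3, Rian and Mirg are highest at day 6 and lowest in XEN; H19 has no usable value at day 6.

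Igf2 spanned the widest range of the 3 protein-coding genes. Its dox course began at 8.44 FPKM without dox, passed through 7.69, 11.2, 21.7 and 26.0 FPKM after 7, 21, 35 and 49 h, and ended at 170.1 FPKM on day 6. It read 15.8 FPKM in Sox17-XEN, 0.0279 FPKM in XEN and 10.9 FPKM in R1. The growth factor gene was thus highest at day 6, next highest at 49 h, and close to 0 in XEN only among the 9 libraries.

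H19, on the other side of the shared control region, shared the shape of Igf2 between 7 h and 49 h and differed from it in XEN. Its dox course held 50.6 FPKM without dox and 16.5, 22.8, 41.4 and 41.7 FPKM after 7, 21, 35 and 49 h, and its day 6 estimate failed. It read 30.7 FPKM in Sox17-XEN, 60.4 FPKM in XEN and 76.3 FPKM in R1. H19 was therefore measured at 16.5 FPKM or more in all 8 libraries with a value, XEN included. Up to 49 h H19, Igf2, Igf2r and the feeder marker sum were all lowest at 7 h and then higher at each later time. The part of feeder RNA in the values of these genes was not tested. In XEN the feeder markers summed to 38.8 FPKM and H19 read 60.4 FPKM.

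Igf2r, the IGF2-clearing receptor, read 25.8 FPKM without dox, 14.5, 18.5, 23.1 and 26.6 FPKM after 7, 21, 35 and 49 h, and 49.0 FPKM on day 6. It read 59.9 FPKM in Sox17-XEN and 28.8 FPKM in XEN, against 11.2 FPKM in R1. Its range was narrow, with the highest values in Sox17-XEN and day 6 and the lowest in R1.

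Dlk1, the paternal gene of its region, read 6.69 FPKM without dox, 5.74, 7.79, 6.52 and 8.02 FPKM after 7, 21, 35 and 49 h, and 27.4 FPKM on day 6. It read 4.51 FPKM in Sox17-XEN and 4.35 FPKM in R1, and was listed at 0 in XEN. Up to 49 h its highest and lowest values differed 1.40-fold, and day 6 stood apart.

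Meg3 was the most abundant of the 7 per length in 8 of 9 libraries. Without dox it read 152 FPKM, with 103, 124, 121 and 143 FPKM after 7, 21, 35 and 49 h and 739 FPKM on day 6. It read 78.8 FPKM in Sox17-XEN, 0.366 FPKM in XEN and 227 FPKM in R1. Rian, the next RNA downstream, read 73.2 FPKM without dox, with 44.8, 61.0, 53.1 and 55.3 FPKM after 7, 21, 35 and 49 h and 326 FPKM on day 6. It read 11.1 FPKM in Sox17-XEN, 0.103 FPKM in XEN and 103 FPKM in R1. Both RNAs varied by under 2-fold within the first 49 h, were highest at day 6 and were under 1 FPKM in XEN. Mirg, the farthest downstream, read 9.25 FPKM without dox, with 5.86, 9.04, 7.37 and 5.93 FPKM after 7, 21, 35 and 49 h and 46.0 FPKM on day 6. It read 1.31 FPKM in Sox17-XEN, 0.0586 FPKM in XEN and 18.4 FPKM in R1. Day 6 was again the highest library and XEN the lowest, with Sox17-XEN next to it.

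The comparison of wild-type XEN with wild-type ESC sets 1 established line of each cell type side by side, so line and cell type cannot be told apart. In XEN the whole measured Dlk1-Meg3 group and Igf2 were lower, while H19 and Igf2r were not. A gene was called higher or lower where log2(FPKM + 1) differed by at least 2 units, a rule of size that replaces a test and that understates differences of genes at low levels. By it 5 of 7 genes were lower in XEN than in R1 (Igf2, Dlk1, Meg3, Rian and Mirg) and 0 were higher, beside 6.54% of all genes lower and 8.24% higher (14.8% together). The differences were -3.54 for Igf2, -2.42 for Dlk1, -7.39 for Meg3, -6.56 for Rian and -4.20 for Mirg. H19 differed by -0.33 and Igf2r by 1.29. The median gene at 5 FPKM or more in both libraries was 0.42 higher in XEN; scaled to that gene, the share of calls that were higher, over all genes, was 35.5% instead of 55.7%, and the same 5 of the 7 genes were called lower. The feeder markers differed in the same direction, with 17 of 24 lower in XEN, and their part in the lower values was not tested.

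**Figure D2:**
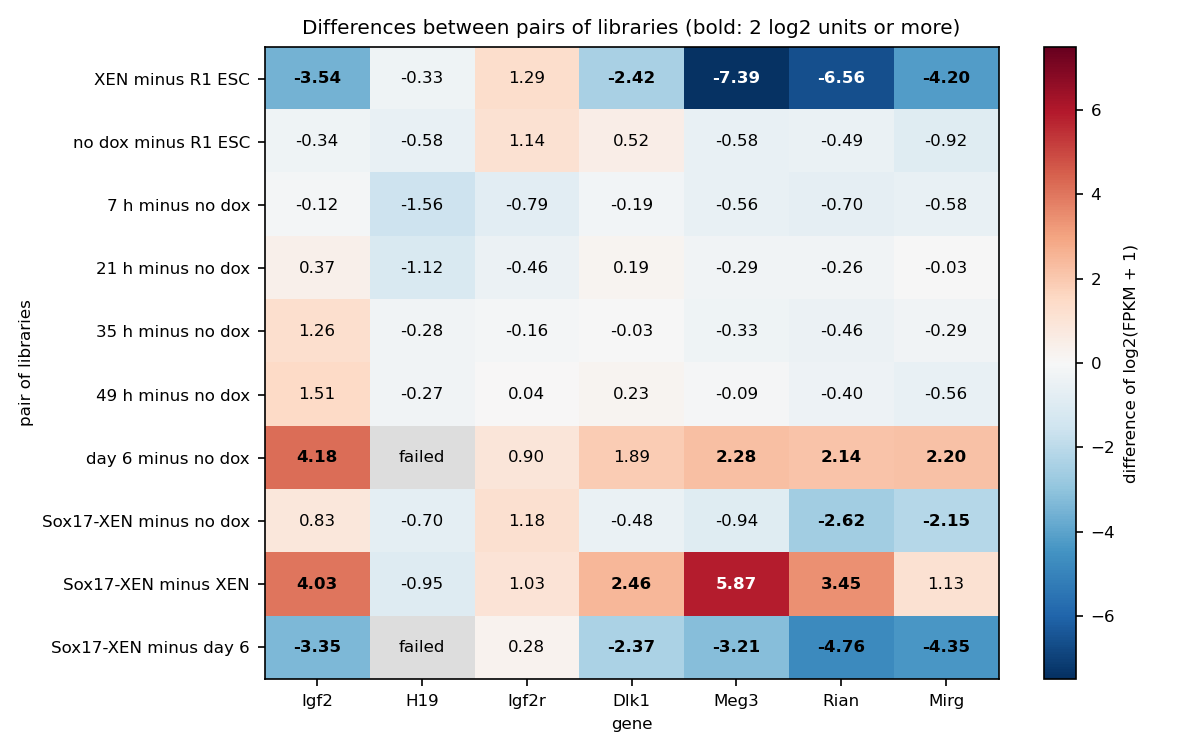
Difference of log2(FPKM + 1) for each gene (columns) in each of 10 pairs of libraries (rows), first library minus second; bold marks 2 units or more and grey a failed value. XEN minus R1 reaches -7.39 for Meg3, day 6 minus no dox reaches 4.18 for Igf2, and the first 49 h of dox hold no bold value.

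The Sox17 line without dox was set against R1 to compare the ESC lines before induction. Its differences from R1 lay between -0.92 (Mirg) and 1.14 (Igf2r), and 0 of 7 genes were called, beside 0.367% of all genes higher and 0.227% lower (0.594% together), so that 0 of 7 is near the background. Igf2r was 25.8 FPKM in the Sox17 line without dox and 11.2 FPKM in R1, and Mirg was 9.25 and 18.4 FPKM in the same order. The feeder marker sum was 3042 FPKM in the Sox17 line without dox and 1458 FPKM in R1.

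Within the first 49 h of Sox17 induction no imprinted gene of the 7 reached the size rule. Few of all genes did at these times, so 0 of 7 is near the background. Against the cells without dox 0 of 7 were called after 7 h, beside 0.446% of all genes higher and 0.34% lower (0.786% together). After 21 h 0 of 7 were called, beside 0.746% of all genes higher and 0.446% lower (1.19% together). The same 0 of 7 stood beside 0.614% higher and 0.46% lower (1.07% together) after 35 h, and 0.706% higher and 0.466% lower (1.17% together) after 49 h. At 7 h all 7 values were below those without dox, from -0.12 for Igf2 to -1.56 for H19, and the median over all genes was -0.10. The median gene at 5 FPKM or more was -0.12 at 7 h and -0.11 at 21 h; scaled to it, all 7 differences at 7 h stayed below 0, Igf2 only just (-0.0055), and that of Mirg at 21 h turned from -0.029 to 0.076. At 49 h Igf2 was 26.0 FPKM against 8.44 FPKM without dox, a difference of 1.51, while the 4 genes of the Dlk1-Meg3 region differed by -0.56 (Mirg) to 0.23 (Dlk1). Feeder marker sums were 1497 FPKM at 7 h and 3862 FPKM at 49 h, against 3042 FPKM without dox, so the largest differences of H19 came from the times with the lowest feeder sums; this was not tested further.

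Day 6 of dox differed from the earlier times. Igf2, Meg3, Rian and Mirg were higher than without dox by 4.18, 2.28, 2.14 and 2.20 log2 units, that is 20.1-fold, 4.87-fold, 4.45-fold and 4.97-fold in FPKM. They make 4 of the 6 genes with a value, beside 5.14% of all genes higher and 3.86% lower (9.0% together). Dlk1 was 4.10-fold higher, a difference of 1.89 that stayed under the rule and passed it with a pseudocount of 0.1 (2.02). Igf2r was 49.0 FPKM at day 6 and 25.8 FPKM without dox, a difference of 0.90. The median gene was 0.24 higher at day 6; scaled to it, Rian (1.90) and Mirg (1.96) were below 2 units and Meg3 (2.04) remained above, and over all genes 43.5% of calls instead of 57.2% were higher. At day 6 the feeder marker sum was 289 FPKM, against 3042 FPKM without dox. Primitive endoderm markers were higher in the same library, all 12 by 2 units or more, and the word SORT stands in its label alone. The part of any of these in the gene levels was not tested.

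Most of the day 6 difference from the cells without dox lay between the 49 h and day 6 libraries. The feeder marker sum was 3862 FPKM at 49 h and 289 FPKM at day 6, and only day 6 carries the word SORT. These cannot be told apart from time. Day 6 exceeded 49 h 6.55-fold for Igf2, 3.42-fold for Dlk1, 5.18-fold for Meg3, 5.90-fold for Rian and 7.75-fold for Mirg, and 1.84-fold for Igf2r. With limma, log2(FPKM + 1) of all genes was regressed on the order of the 6 course times, which found 0 of 15007 genes (0.0%) at a Benjamini-Hochberg adjusted p under 0.05, with 2488 upward and 1291 downward slopes at an unadjusted p under 0.05. Igf2 had the steepest slope of the 7, 0.76 ± 0.16 log2 units per step (SE), with an adjusted p of 0.12 in limma. Slopes of Dlk1 (0.30, adjusted p 0.195), Meg3 (0.36, adjusted p 0.239) and the other 4 genes did not pass either in limma. Without day 6 the slope of Igf2 was 0.44 (adjusted p 0.125 in limma) and that of Meg3 was 0.0053, so the Meg3 slope rested on day 6. H19 had 5 libraries in this fit, since its day 6 value is missing, and its slope was 0.073.

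For Igf2 and the 4 genes of the Dlk1-Meg3 region, Sox17-XEN, the converted line, lay between day 6 and wild-type XEN. So did every other library, since day 6 was the highest for these genes and XEN the lowest. Against the cells without dox, Rian was 11.1 FPKM in Sox17-XEN and 73.2 FPKM without dox, and Mirg was 1.31 and 9.25 FPKM in the same order. These are differences of -2.62 and -2.15, and they make 2 of 7 genes lower and 0 higher, beside 5.0% of all genes lower and 5.75% higher (10.8% together). Meg3 stood at 51.9% of its level without dox and differed by -0.94, Dlk1 by -0.48 and H19 by -0.70, whereas Igf2 differed by 0.83 and Igf2r by 1.18. The feeder marker sum was 1170 FPKM in Sox17-XEN and 3042 FPKM without dox, with 3 of 24 markers lower. Its part in these differences was not tested. The median gene was 0.35 higher in Sox17-XEN; scaled to it, 35.0% instead of 53.5% of calls over all genes were higher, and Rian and Mirg were still the 2 genes called.

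Against day 6 of the same line, 5 of the 6 genes with a value were lower in Sox17-XEN, beside 3.62% of all genes lower and 2.96% higher (6.59% together). Sox17-XEN held 9.27% of the day 6 level for Igf2, 16.5% for Dlk1, 10.7% for Meg3, 3.39% for Rian and 2.85% for Mirg. Igf2r was at 122%, the only one of the 6 at or above its day 6 level. The labels of day 6 and Sox17-XEN differ in time, in dox and in the word SORT, and these cannot be told apart. The feeder marker sum was 1170 FPKM in Sox17-XEN and 289 FPKM at day 6, with 10 of 24 markers higher. Its part in these differences was not tested.

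Against wild-type XEN, Sox17-XEN was higher for 4 of 7 genes, beside 2.73% of all genes higher and 1.59% lower (4.32% together). Igf2 was 15.8 FPKM in Sox17-XEN and 0.0279 FPKM in XEN, a difference of 4.03. Meg3 was 78.8 FPKM in Sox17-XEN and 0.366 FPKM in XEN, a difference of 5.87. Rian differed by 3.45, and Dlk1, at 4.51 FPKM in Sox17-XEN and listed at 0 in XEN, by 2.46. Mirg differed by 1.13, which passed the rule with a pseudocount of 0.1 (3.15), so the 2 lines described as XEN differed in both imprinted regions. H19 was 30.7 FPKM in Sox17-XEN and 60.4 FPKM in XEN, and Igf2r was 59.9 and 28.8 FPKM in the same order; neither difference reached 2 units. The feeder marker sum was 1170 FPKM in Sox17-XEN and 38.8 FPKM in XEN, with 18 of 24 markers higher, and its part in these 4 differences was not tested.

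XEN and Sox17-XEN were then set against R1 and the Sox17 line without dox, with every line counted once. limma called 3620 of 14923 genes (24.3%) at an adjusted p under 0.05, 2078 higher (13.9%) and 1542 lower (10.3%). Scaled to the median gene the split was 1188 higher and 2525 lower. Of the 7 genes 2 passed, with and without that scaling, beside 24.3% of all genes, so 2 of 7 is near the background. Both were lower in the XEN-type lines: Mirg by -3.17 ± 0.57 log2 units (SE, adjusted p 0.0248 in limma) and Rian by -4.59 ± 1.16 (SE, adjusted p 0.0494 in limma). Meg3 (-4.16, adjusted p 0.173), Dlk1 (-1.45, adjusted p 0.267) and Igf2 (-1.35, adjusted p 0.482) did not pass in limma, their 2 XEN-type values lying far apart. Igf2r was 1.24 higher in the XEN-type lines (adjusted p 0.157 in limma) and H19 differed by -0.52. Each call depended on every ESC library: without R1, or without the Sox17 line lacking dox, limma called 0 genes in all, with 1634 and 2282 higher and 1954 and 1967 lower at an unadjusted p under 0.05. In such fits the lone library of an arm is assumed to vary like the others. Without Sox17-XEN, 5 of the 7 passed (the 2 above with Igf2, Dlk1 and Meg3), beside 3434 of 14827 genes (23.2%). Without wild-type XEN, Rian (adjusted p 0.02 in limma) and Mirg (adjusted p 0.0408 in limma) still passed, beside 3149 of 14820 genes (21.2%). With an unfiltered gene set neither passed, beside 11.5% of all genes, and Rian did not with a pseudocount of 0.1 (adjusted p 0.0816 in limma), beside 24.7% of all genes. Sox17-XEN descends from the Sox17 ESC line, so the 4 lines are not fully independent.

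Ratios within a region set neighbouring genes side by side. Rian stood at 14.0% of Meg3 in Sox17-XEN, against 38.8% to 49.2% in R1, the cells without dox and every library with dox up to day 6. Mirg stood at 1.66% of Meg3 in Sox17-XEN, against 4.16% to 8.10% in the same libraries. Relative to the cells without dox, the ratio to Meg3 in Sox17-XEN was 3.44-fold lower for Rian and 3.66-fold lower for Mirg. Mirg was only 1.31 FPKM in Sox17-XEN, and as log2 ratios of FPKM + 1 these differences were -1.69 for Rian and -1.21 for Mirg, instead of -1.78 and -1.87. The ratio of Mirg to Rian was 11.9% in Sox17-XEN and 10.7% to 17.8% in the same other libraries. As a log2 ratio of FPKM + 1 it was -2.38 in Sox17-XEN, above the -3.02 to -2.42 of those libraries, so whether Mirg and Rian kept one ratio depends on the scale. These ratios have no replicate and no test, and in XEN all 3 RNAs were under 1 FPKM, so its ratios are not compared. Meg3 exceeded Dlk1 15.9-fold to 52.3-fold in the 8 libraries where Dlk1 was above 0.

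**Figure D3:**
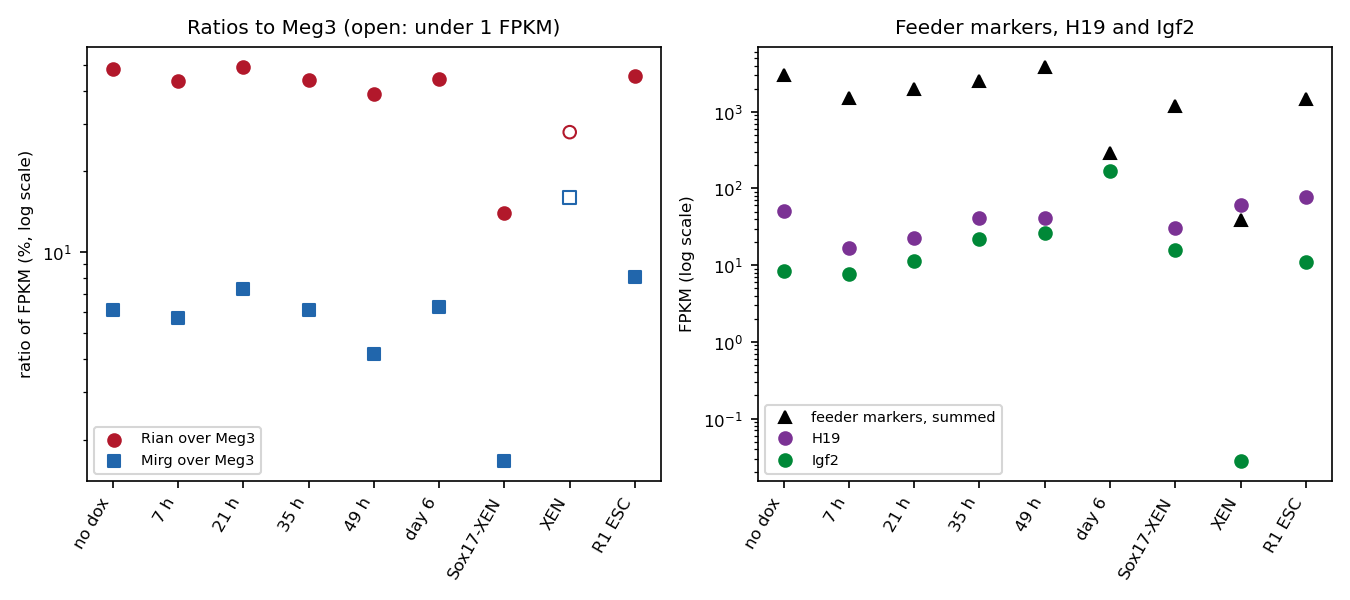
Left, FPKM of Rian and Mirg as a percent of Meg3 in each library on a log axis, with open symbols where a value is under 1 FPKM. Right, FPKM of H19 and Igf2 and the summed FPKM of 24 feeder markers on a log axis; both ratios are lowest in Sox17-XEN, and the feeder sum is lowest in XEN.

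The ratio of H19 to Igf2 differed between libraries, although both genes were higher at each later time from 7 h to 49 h. The log2 ratio of H19 to Igf2 was 2.58 without dox and 1.10, 1.03, 0.93 and 0.68 after 7, 21, 35 and 49 h. It was 0.96 in Sox17-XEN and 2.80 in R1. From 7 h to 49 h of dox and in Sox17-XEN it was thus below both ESC libraries without dox. Day 6 has no ratio, since its H19 value failed. In XEN the ratio was 11.1, because Igf2 was 0.0279 FPKM; as a ratio of FPKM + 1 it was 5.90 on the log2 scale. Igf2as, a row at the Igf2 locus, was 2.04% of Igf2 without dox, 6.48% at 49 h, 5.67% at day 6 and 3.01% in Sox17-XEN, being under 1 FPKM without dox and in Sox17-XEN. On chromosome 17, Airn, the paternal antisense RNA that overlaps Igf2r, stood at 10.6% of Igf2r at day 6, 13.1% in Sox17-XEN and 22.7% in XEN. It stood at 3.79% to 4.40% in the course up to 49 h and in R1, where Airn itself was under 1 FPKM at 7, 21 and 35 h and in R1, so these low ratios are loosely set.

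Next, the genes around the Dlk1-Meg3 region were examined. Among 13 genes within 1000 kb on either side that passed the filter on low values, 0 were lower by 2 units in XEN than in R1, beside 6.54% of all genes, with a lowest value of -1.05 (Begain) and a median of 0.35. At day 6, 0 of 13 were called in either direction against the cells without dox, beside 9.0% of all genes; with 13 genes both counts are near the background. In Sox17-XEN 4 of 13 were higher than without dox (Eml1, Evl, Degs2 and the tryptophanyl-tRNA synthetase gene Wars) and 0 were lower, beside 5.75% and 5.0% of all genes. Eml1, Evl and Degs2 share the same listed locus, so the 4 calls do not come from 4 separate loci. Rtl1, the retrotransposon-derived gene between Meg3 and Rian, stayed under 1 FPKM in all 9 libraries and was not among the genes kept.

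**Figure D4:**
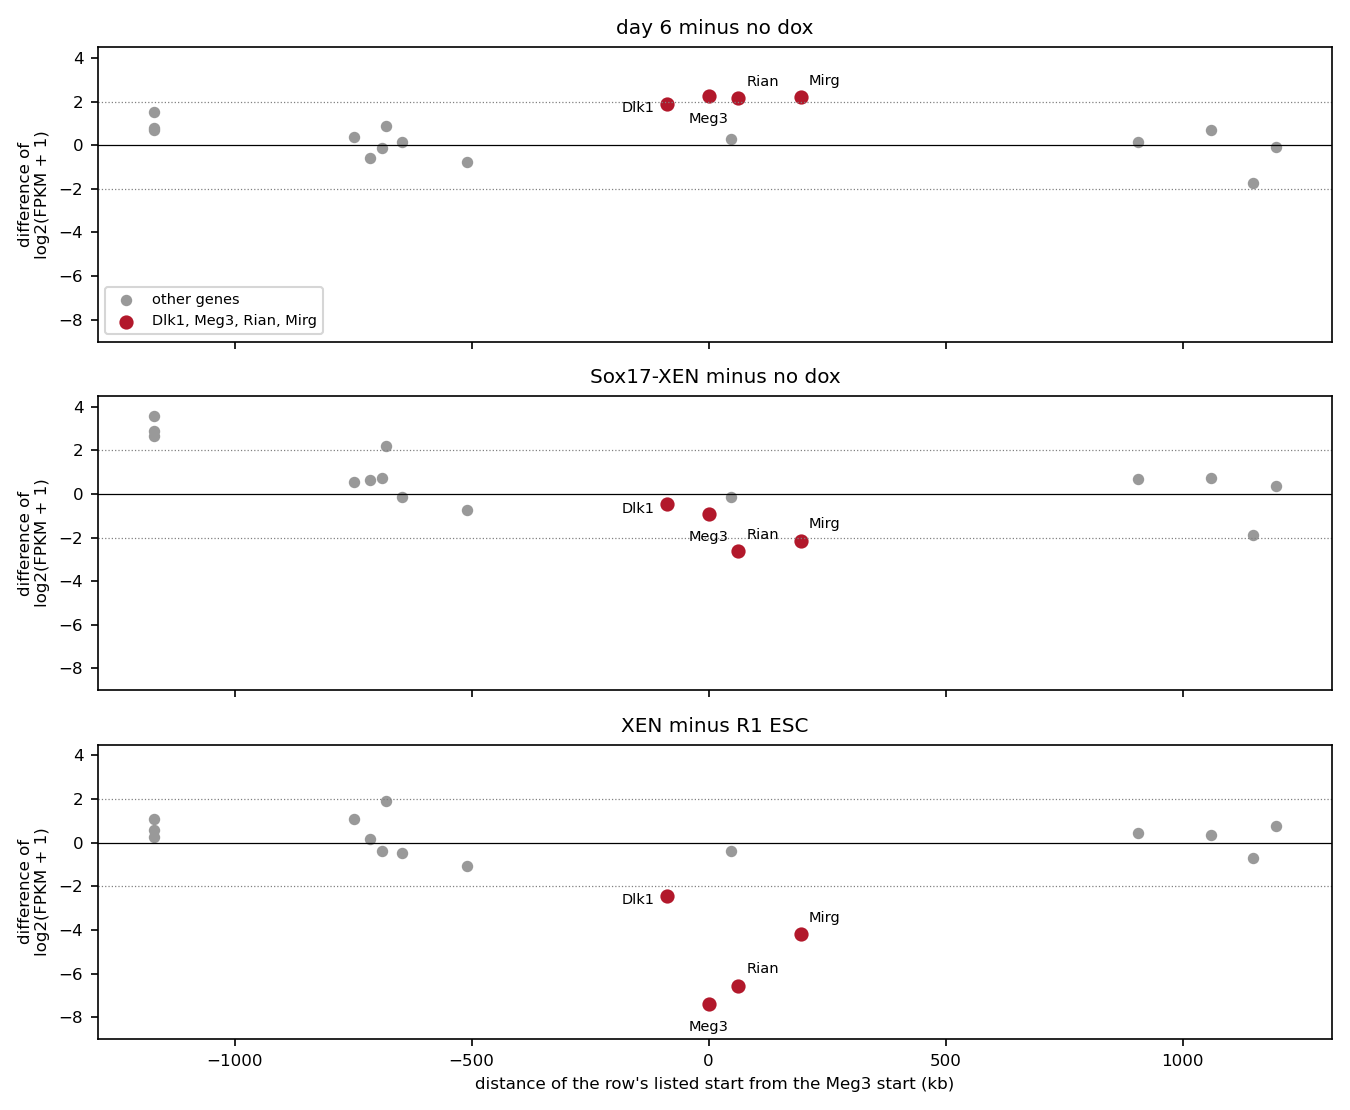
Difference of log2(FPKM + 1) against the distance in kb of each listed locus start from the Meg3 start, for day 6 minus no dox, Sox17-XEN minus no dox and XEN minus R1; red marks Dlk1, Meg3, Rian and Mirg, grey the 13 flanking genes and Rtl1 (predicted genes are not drawn), and dotted lines 2 units. The 4 red points lie below -2 in XEN while no grey point does.

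Around the Igf2-H19 region, 22 rows within 1000 kb were measured. In XEN, 5 rows of 4 genes (Phlda2, Cdkn1c, Lsp1 and Tnfrsf22, which has 2 rows) were lower than in R1. In the same comparison 1 row (Tollip) was higher, beside 6.54% of all genes lower and 8.24% higher. At day 6, 3 of the 22 rows were lower and 0 higher than without dox, beside 3.86% and 5.14% of all genes. The growth-restraining placental gene Phlda2 was 5.56 FPKM in XEN and 63.6 FPKM in R1, and 1.50 FPKM at day 6 and 30.7 FPKM without dox. At 49 h it was already at 4.16 FPKM, a difference of -2.62 from the cells without dox. The cell cycle inhibitor Cdkn1c was 1.13 FPKM in Sox17-XEN, against 10.5 FPKM without dox. Around Igf2r, the acyltransferase gene Agpat4 was higher in all 3 comparisons, by 2.81 in XEN, 2.43 in Sox17-XEN and 3.27 at day 6. Pnldc1 was lower there in XEN (-3.53) and in Sox17-XEN (-3.01) and differed by -0.66 at day 6.

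Other imprinted genes went in both directions. Of 18 other paternally expressed genes measured, 4 were higher in XEN than in R1 (Peg3, Plagl1, Sgce and Airn) and 3 were lower (Slc38a4, Snrpn and Mest), beside 8.24% of all genes higher and 6.54% lower, with a median of -0.51 against 0.21 over all genes tested. The zinc-finger gene Peg3 was 167 FPKM in XEN and 7.68 FPKM in R1, and the amino acid transporter gene Slc38a4 differed by -5.43. Of 13 other maternally expressed genes, 0 were higher and 2 were lower (Phlda2 and Cdkn1c), with a median of 0.23. At day 6, 1 of the 18 paternally expressed genes was higher than without dox (Peg3) and 5 were lower, while 1 of the 13 maternally expressed genes was lower (Phlda2), beside 5.14% of all genes higher and 3.86% lower. Sox17-XEN and XEN differed by 2 units in 0 of these 18 paternally expressed genes and in 1 of 13 maternally expressed genes, Grb10 (-3.59), beside 4.32% of all genes. In limma, 4 paternally expressed genes passed upward and 5 downward in the XEN-type lines, and 1 maternally expressed gene (Gnas) upward and 4 downward, beside 13.9% of all genes upward and 10.3% downward.

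Genes that maintain or erase imprints include readers of methylated imprints, methyltransferases and TET dioxygenases. Of 21 such genes measured, 4 were lower in XEN than in R1 (Dnmt3l, Zfp42, Dppa3 and Jarid2) and 1 was higher (Tet3), beside 6.54% of all genes lower and 8.24% higher, with a median of -0.78 against 0.21 over all genes. Sox17-XEN had 7 lower and 1 higher than without dox, beside 5.0% and 5.75% of all genes; Dnmt3l, the cofactor of de novo methylation, was 0.642 FPKM in Sox17-XEN and 155 FPKM without dox. At day 6 Dnmt3l was at 252 FPKM. Zfp57, whose protein guards methylated imprints, was 32.2 FPKM at 21 h, 45.3 FPKM at day 6 and 27.5 FPKM in Sox17-XEN, against 136 FPKM without dox. At 21 h 2 of the 21 genes were lower by 2 units, and at 7, 35 and 49 h 0 were. At these times 0.34% to 0.466% of all genes were lower. The slope of Zfp57 over the course was -0.21 and did not pass (adjusted p 0.319 in limma). In limma 8 of the 21 passed downward and 1 upward in the XEN-type lines, among them Zfp57 (-2.10, adjusted p 0.017 in limma), beside 10.3% of all genes downward and 13.9% upward. Pluripotency genes such as Zfp42 and Dppa3 are also in this list.

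In the IGF pathway the ligand gene Igf1 reached the size rule at an earlier time than Igf2. Neither slope over the course passed in limma (adjusted p 0.181 for Igf1 and 0.12 for Igf2). Igf1 was 8.20 FPKM at 7 h and 26.1 FPKM at 21 h, against 0.344 FPKM without dox, and it was the 1 gene of 16 measured called higher at each time up to 49 h, where 0.446% to 0.746% of all genes were higher. It was 20.5 FPKM at day 6, 1.52 FPKM in Sox17-XEN, 23.6 FPKM in XEN and 0.335 FPKM in R1. Sox17-XEN thus had the higher Igf2 and the lower Igf1 of the 2 XEN-type lines. The insulin receptor gene Insr was 33.1 FPKM in Sox17-XEN and 32.5 FPKM in XEN, against 3.18 FPKM without dox and 1.46 FPKM in R1. The binding protein gene Igfbp2 was 4.95 FPKM in Sox17-XEN and 5.60 FPKM in XEN, against 151 FPKM without dox and 256 FPKM in R1. Of the 16, 5 passed upward in limma in the XEN-type lines (Insr, Irs2, Igf2bp2, Igf2bp3 and M6pr) and 1 downward, Igfbp2 (-4.98, adjusted p 0.00835 in limma), beside 13.9% of all genes upward and 10.3% downward. Of 14 Notch pathway genes set beside Dlk1, 1 was higher and 2 were lower in XEN than in R1 (8.24% and 6.54% of all genes), and in limma 2 passed upward and 5 downward (13.9% and 10.3% of all genes).

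The genes most like each member were found by Pearson correlation of log2(FPKM + 1) over 9 libraries (8 for H19), given as a description over points that share libraries and depth. Igf2 was nearest to Hexa, a lysosomal hexosaminidase gene (r = 0.976), then Zfp37 and Gjb5, with Dlk1 the fourth (r = 0.948). Hexa was 247 FPKM at day 6, 24.3 FPKM without dox and 1.70 FPKM in XEN. Meg3 was nearest to Ly6e, Ftl2 and Tmem8, with Rian the fifth (r = 0.967). Ftl2 was at 895 FPKM at day 6 and 0.496 FPKM in XEN. Dlk1 was nearest to Praf2 (r = 0.988), Evc2 and the IGF-binding protein gene Igfbp6. Rian was nearest to the carbonic anhydrase gene Car2 (r = 0.984), Auh and Ly6e, and Mirg to Cldn7 (r = 0.974), Tspan7 and Krtcap3. For Igf2r the nearest were Pbxip1 (r = 0.991), Tbc1d2b and Tnrc18, and for H19 Fam100a (r = 0.950), Polr1d and Mettl11a. Among the 7 themselves, Rian with Meg3 and Rian with Mirg (r = 0.960) were the closest pairs, and H19 with Igf2 had r = -0.25 over 8 libraries.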

How the data were processed

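RNA was sequenced from 9 mouse libraries, 1 per group. Trizol extraction and a TruSeq RNA kit were used, per the labels' protocols. Cuffdiff (no version given), TopHat2 2.0.11, Cufflinks 2.1.2 and the mouse build mm9 are named in the submitters' processing notes. The authors deposited FPKM for 37975 rows, each with confidence bounds and a status; only values with status OK were used. No counts are given, so no counting error can be stated.

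From this table log2(FPKM + 1) was computed. Rows reaching 1 FPKM in any library (15082) were kept, which all 7 members passed. Pairs of single libraries have no test; a difference of 2 log2 units was called. limma 3.58.1 (R 4.3.3, empirical Bayes with mean trend, two-sided, Benjamini-Hochberg over all genes) fitted a slope over 6 course libraries and 2 XEN-type against 2 ESC-type lines. It was also run on simulated data with independent noise of the same size for all genes. That run cannot check the p-values of these related libraries. The p-values measure spread between libraries that are not replicates. Differences, ratios and counts used Python 3.11.15 with pandas 2.3.3 and numpy 2.4.6, and figures with matplotlib 3.10.9. Sequences are RefSeq's, build GRCm38.p6. Alternatives were a pseudocount of 0.1, scaling to the median gene at 5 FPKM or more in both libraries, no filter, a difference of 1 unit, non-overlapping authors' intervals, another time scale, a test against 2 units and leaving out each library.

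The members and the lists were chosen with earlier results of these data known. Named genes were the 7 members, Sox17, up to 4 genes per list and comparison with the largest differences, and the 3 most correlated genes per member. Neighbours around the 3 regions, and further list genes whose values are given, were named after their values were seen.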

Additional observations from a re-analysis of the deposited data

Results flagged for a closer look

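Igf2 differed in opposite directions in the wild-type and the Sox17 pair of lines: it was lower in XEN than in R1 by a difference of -3.54 log2 units and higher in Sox17-XEN than in the cells without dox by 0.83. The difference between these effects was not tested, since each rests on 1 library per group.

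H19 at day 6 is listed at 405 FPKM with a failed status, above the 50.6 FPKM of the cells without dox, and was left out of all comparisons. Igf2as, a row at the Igf2 locus, was at 9.65 FPKM at day 6, against 0.173 FPKM without dox. Gm17639, a predicted gene at the Meg3 locus, was at 37.4 FPKM at day 6, against 7.31 FPKM without dox. It stood at 4.29% to 8.04% of Meg3 in the 8 libraries other than XEN, where both were under 1 FPKM.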

How the results depend on the processing

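No paired analysis was possible because each group has 1 library. Over 68 differences of single genes between pairs of libraries, 66 kept their direction and their side of 2 log2 units with a pseudocount of 0.1, and 65 when scaled to the median gene; the others (Dlk1, Rian and Mirg at day 6, Mirg at 21 h and in Sox17-XEN against XEN) have their values above. Non-overlapping authors' intervals could call none of the 7, since every lower bound is 0: the count was 0 by construction in XEN against R1, day 6 against no dox and each comparison of Sox17-XEN (2 to 9 of all genes). Scaling left 2 genes called at day 6, beside 8.93% of all genes. A difference of 1 unit gave 1 call of 7 in each comparison that had none, beside 5.36% of all genes in the Sox17 line without dox against R1 and 3.03%, 5.08%, 4.62% and 5.54% after 7, 21, 35 and 49 h. Adding Sox17-XEN to the course gave 2102 genes with a slope, and the slopes of Rian and Mirg were then -0.083 and -0.051. The H19 slope was -0.041 on log2(hours + 1). The lines test called 78 genes (0.523%), and 0 of the 7, against a difference of 2 units, and 1 of the 7 with a pseudocount of 0.1 (3684 of all genes) and 0 without the filter (2847 of 24663 genes). Leaving out each library gave 0 to 3434 genes in the lines test, and 0 to 5 of the 7. In that test Igf2 ranged from -3.37 to 0.66, the last without XEN. Course slopes ranged from -0.047 to 0.47 for H19, -0.084 to 0.50 for Mirg and -0.056 to 0.55 for Rian; the lowest values of Mirg and Rian came without day 6. As log2 of FPKM + 1, the H19 to Igf2 ratio differed by 3.21 between XEN and R1 instead of 8.28, and the Mirg to Meg3 ratio between day 6 and no dox by -0.079 instead of 0.031. The causes were not tested. Values near 0 FPKM in XEN limit the ratios, and without counts the depth behind each value is unknown.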
